A study of Homo sapiens with 12 samples.

Results

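Regions enriched for histone H3.1 or H3.3 were taken from human chromosomes 4, 13 and 18 in each of 6 region lists, 1 list per ChIP library. They numbered 2618 of 44966 regions in the H3.1 control list, 560 of 7922 in the H3.1 4 h list and 1143 of 13611 in the H3.1 24 h list. For H3.3 they numbered 760 of 9839 in the control list, 275 of 3614 at 4 h and 5283 of 81370 at 24 h, so that 10639 of 161322 regions on chromosomes 1 to 22 and X lay on these 3 chromosomes. The choice used the chromosome name alone and no measured value. The libraries came from MCF10AER/vSrc cells, derived from the non-tumorigenic human mammary epithelial line MCF10A and carrying v-Src, an oncogenic tyrosine kinase, fused to an estrogen receptor domain that makes it inducible. Their genotype was labelled WT, and the labels do not say whether v-Src was induced. Chromatin was immunoprecipitated for H3.1, which the design text gives as H3.1/H3.2, or for H3.3, from D-alanine-treated cells taken after 4 h or 24 h and from control cells. D-alanine is an agent that the design ties to oxidant production inside the nucleus. The labelled dose of 10 nM is doubtful and was not checked against another source. Each of the 6 conditions had 1 ChIP library and 1 input library, so no difference between conditions has a replicate check and none was tested. All intervals cover counting error only. A region missing from a list was not called there, and the histone may still have been present.

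H3.1 is placed on DNA mainly behind the replication fork by the chaperone CAF-1, whereas H3.3 is placed throughout the cell cycle, by HIRA at active genes and by DAXX and ATRX at telomeres and other repeats. Chromosomes 4, 13 and 18 are known for long stretches without protein-coding genes, many of which replicate late and lie near the nuclear periphery. Chromosome 13 is acrocentric, with a short arm of repeats and ribosomal RNA genes. In the RefSeq gene table the label gene-poor held: chromosomes 13, 18 and 4 had 2.96, 3.36 and 4.05 protein-coding genes per Mb and were the lowest 3 of 23, against 7.03 per Mb on the other 20 together. They held 12.7% of the length considered and 1378 of 19974 protein-coding genes (6.90%). Gene bodies took up 34.5% of their length, against 42.6% on the other 20 chromosomes.

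ChIP depth was even, between 16837079 and 19576955 tags per library, while the lists differed widely in length. The lists of H3.1 control and H3.3 24 h stood apart from the other 4 and resembled each other, against their labels of histone and treatment. On the 3 chromosomes, 677 of 2618 H3.1 control regions (25.9%) overlapped an H3.3 24 h region by 1 bp or more, and 678 of 5283 H3.3 24 h regions (12.8%) overlapped an H3.1 control region. Lists of the same histone shared less: 64 of 2618 H3.1 control regions (2.44%) overlapped the H3.1 24 h list, and 22 of 760 H3.3 control regions (2.89%) overlapped the H3.3 24 h list. The H3.1 24 h list, with 1143 regions there, left fewer to overlap than the 5283 of H3.3 24 h. In reverse, 5.81% of H3.1 24 h regions on chromosome 4 and 6.86% on chromosome 13 overlapped H3.1 control. Every comparison of 24 h with control sets 1 of the 2 long lists, H3.1 control or H3.3 24 h, against a short one. What part the libraries themselves have in it was not tested. Whether labels or libraries were exchanged cannot be told from the files, and an exchange would change what each of these comparisons means.

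Few regions lay on promoters, and the 8 protein-coding promoters on the 3 chromosomes that were overlapped in 2 or more lists show which kinds of sequence these were. The windows run from 250 bases before to 50 bases after a RefSeq start of the gene, which need not be its outermost end. They are printed 5′ to 3′ on the gene's strand (GRCh38.p14), with every CG dinucleotide in capitals. CIDEA (chr18:12254111-12254410, plus strand), a lipid droplet protein, was overlapped at H3.1 4 h and H3.3 control. RAX (chr18:59273405-59273704, minus strand), a homeobox factor of eye development, was overlapped at H3.1 4 h and 24 h. DCHS2 (chr4:154491750-154492049, minus strand), a protocadherin, was overlapped at H3.1 control and 4 h. OTOP1 (chr4:4226880-4227179, minus strand), a proton channel, was overlapped at H3.1 4 h and H3.3 control. JAKMIP1 (chr4:6194570-6194869, minus strand) and AFG2A (chr4:122922828-122923127, plus strand), an AAA-type ATPase, were overlapped at H3.1 control and H3.3 24 h. The JAKMIP1 window lies at a start inside the gene body, and its 2 regions lay 5.526 and 5.385 kb from the nearest gene end. The window of NUDT6 overlaps that of AFG2A on the opposite strand and is not printed. PSAPL1 (chr4:7434881-7435180, minus strand), a prosaposin-like gene inside SORCS2, was overlapped at H3.1 control, H3.1 24 h and H3.3 24 h.
CIDEA: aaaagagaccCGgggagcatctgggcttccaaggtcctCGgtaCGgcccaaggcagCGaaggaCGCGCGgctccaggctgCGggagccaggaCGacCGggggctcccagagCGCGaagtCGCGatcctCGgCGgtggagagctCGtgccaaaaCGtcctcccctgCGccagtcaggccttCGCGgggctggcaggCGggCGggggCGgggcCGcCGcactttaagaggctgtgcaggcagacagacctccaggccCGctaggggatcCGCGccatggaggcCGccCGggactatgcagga
RAX: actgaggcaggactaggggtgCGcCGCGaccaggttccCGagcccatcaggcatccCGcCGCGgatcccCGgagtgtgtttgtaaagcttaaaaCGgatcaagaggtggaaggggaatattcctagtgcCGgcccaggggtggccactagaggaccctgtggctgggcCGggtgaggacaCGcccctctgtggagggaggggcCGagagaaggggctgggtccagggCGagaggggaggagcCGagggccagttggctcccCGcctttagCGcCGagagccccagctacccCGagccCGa
DCHS2: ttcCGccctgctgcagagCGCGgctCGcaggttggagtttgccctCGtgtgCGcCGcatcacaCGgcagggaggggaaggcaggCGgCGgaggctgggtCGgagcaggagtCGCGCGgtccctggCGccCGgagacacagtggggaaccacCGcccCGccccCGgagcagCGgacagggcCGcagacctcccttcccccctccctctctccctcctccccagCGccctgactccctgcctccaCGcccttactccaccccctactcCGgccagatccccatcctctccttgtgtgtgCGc
OTOP1: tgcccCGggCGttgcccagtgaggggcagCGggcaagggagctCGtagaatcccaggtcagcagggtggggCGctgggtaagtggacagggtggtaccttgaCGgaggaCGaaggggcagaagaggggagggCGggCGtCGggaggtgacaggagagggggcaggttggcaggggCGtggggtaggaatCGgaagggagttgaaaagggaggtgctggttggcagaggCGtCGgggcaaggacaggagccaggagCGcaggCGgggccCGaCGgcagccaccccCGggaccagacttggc
JAKMIP1: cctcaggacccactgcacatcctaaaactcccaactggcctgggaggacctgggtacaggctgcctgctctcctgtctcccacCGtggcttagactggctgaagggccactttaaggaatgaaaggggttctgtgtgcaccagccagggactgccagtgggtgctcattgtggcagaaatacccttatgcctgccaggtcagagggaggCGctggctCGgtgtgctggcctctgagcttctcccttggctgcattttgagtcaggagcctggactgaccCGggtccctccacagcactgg
PSAPL1: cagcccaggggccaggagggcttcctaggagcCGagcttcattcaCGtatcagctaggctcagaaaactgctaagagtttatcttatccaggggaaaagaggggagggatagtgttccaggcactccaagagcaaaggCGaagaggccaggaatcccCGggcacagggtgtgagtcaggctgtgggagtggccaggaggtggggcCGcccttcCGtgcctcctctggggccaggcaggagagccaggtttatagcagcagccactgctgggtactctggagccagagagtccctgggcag
AFG2A: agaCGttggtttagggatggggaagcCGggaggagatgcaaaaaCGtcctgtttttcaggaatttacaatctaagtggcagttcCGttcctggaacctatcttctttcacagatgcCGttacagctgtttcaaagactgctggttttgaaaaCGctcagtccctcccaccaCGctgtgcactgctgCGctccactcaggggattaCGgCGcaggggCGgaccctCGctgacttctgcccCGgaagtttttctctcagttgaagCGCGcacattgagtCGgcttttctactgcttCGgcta

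CIDEA and DCHS2 had 31 and 25 CG dinucleotides and JAKMIP1 and PSAPL1 had 4 and 6, against a median of 24 over all 1190 protein-coding promoter windows on the 3 chromosomes. RAX had 20, OTOP1 19 and AFG2A 17. The GC box GGGCGG, searched on both strands, occurred 3 times in CIDEA, 2 times in DCHS2 and once each in OTOP1, PSAPL1 and AFG2A, and 57.1% of the 1190 windows held it. The AP-1 motif TGACTCA, also on both strands and not overlapping a GC box match, occurred once each in JAKMIP1 and PSAPL1 and in 3.95% of all windows. CCAAT was in none of the 7 printed windows and in 34.1% of all. At CIDEA the H3.3 control region held 27.9 normalized tags, the authors' signal per 10000000 ChIP tags, at 4.63-fold over input (95% interval 2.32 to 10.3), and the H3.1 4 h region 14.2 tags at 4.73-fold. The CIDEA regions were 846 and 500 bp wide in that order, so their tags do not cover equal lengths. At PSAPL1 the regions held 18.2 tags in H3.1 control, 22.6 in H3.1 24 h and 28.1 in H3.3 24 h, but these are not levels at a single site. The H3.1 24 h region (chr4:7434243-7434909) overlapped neither the H3.1 control region (chr4:7435150-7436305) nor the H3.3 24 h region (chr4:7434997-7436365). Their widths were 666, 1155 and 1368 bp in that order. The H3.1 control fold of 28.8 rests on 1 input tag. These are descriptions of letters and tags, not of a factor bound there.

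Every list was thinner on the 3 chromosomes than elsewhere. H3.1 control regions stood at 6.80 per Mb, against 16.0 on the other 20 chromosomes, a ratio of 0.425 (0.408 to 0.442). The ratio was 0.523 (0.479 to 0.570) in the H3.1 4 h list, at 1.46 against 2.78 regions per Mb, and 0.630 (0.593 to 0.670) in the H3.1 24 h list, at 2.97 against 4.71. For H3.3 it was 0.575 (0.534 to 0.620) in control cells, 0.566 (0.499 to 0.640) at 4 h and 0.477 (0.464 to 0.491) at 24 h, where 13.7 regions per Mb stood against 28.8. The ratio was lowest in the 2 longest lists, although the intervals of H3.3 24 h and H3.1 4 h overlap. Counted per protein-coding gene the difference was smaller: H3.1 control had 1.90 regions per gene on the 3 against 2.28 elsewhere and H3.3 24 h had 3.83 against 4.09, while the other 4 lists had more per gene on the 3, such as 0.829 against 0.670 in H3.1 24 h.

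The 3 chromosomes were not alike. Against the mean of the whole library, chromosome 18 had the highest density of the 3 in 5 lists, between 0.658 in H3.3 4 h and 0.815 in H3.1 24 h, and in H3.3 control it had 0.618, below chromosome 4 at 0.678. Chromosome 4 had 0.393 in H3.1 control and 0.422 in H3.3 24 h and the second lowest density of 23 in 4 lists, although it has the most genes per Mb of the 3. Chromosome 13 was the lowest of all 23 chromosomes in H3.1 4 h at 0.528 and in H3.3 control at 0.485. Its neighbour in H3.1 4 h, chromosome 4 at 0.529, differed by less than counting error.

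**Figure D1:**
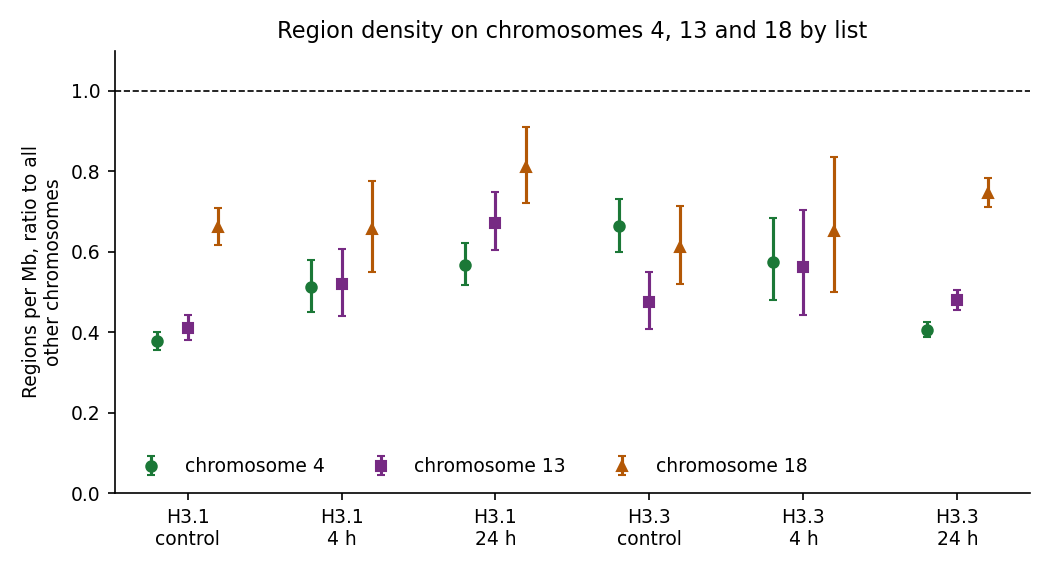
Regions per Mb on chromosome 4, 13 or 18 divided by regions per Mb on all other chromosomes (vertical axis, ratio) in each of the 6 lists, with exact 95% intervals for counting error and a dashed line at 1. All 18 points lie under the line, from 0.378 for chromosome 4 in H3.1 control to 0.811 for chromosome 18 in H3.1 24 h.

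After D-alanine the number of regions on the 3 chromosomes differed from control in the same direction as elsewhere. H3.1 lists held 0.214 times as many regions at 4 h as in control cells (0.195 to 0.234), against 0.174 (0.170 to 0.178) on the other 20. At 24 h the H3.1 ratio was 0.437 (0.407 to 0.468), against 0.294 (0.289 to 0.300), with 0.450 on chromosome 4, 0.491 on chromosome 13 and 0.370 on chromosome 18. H3.3 lists held 0.362 times as many at 4 h (0.314 to 0.416), against 0.368 elsewhere (0.353 to 0.383), intervals that overlap. At 24 h the H3.3 list was 6.95 times as long (6.44 to 7.51), against 8.38 times (8.20 to 8.57), and the gain was 5.15 times on chromosome 4 (4.63 to 5.73), 8.36 times on chromosome 13 (7.16 to 9.81) and 10.1 times on chromosome 18 (8.56 to 11.9). The interval of chromosome 4 lay below those of the other two.

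The share of a list that fell on the 3 chromosomes differed with the authors' region score, which is not adjusted for depth. Many regions have equal scores and were then ordered by normalized tags, so the ranking rests partly on tags. In the H3.3 24 h list the 3 chromosomes held 4.25% of the highest-scoring of 4 equal groups of regions (3.98 to 4.54). They held 7.87% of the lowest-scoring group (7.50 to 8.24). In the H3.1 control list the same shares were 4.52% and 7.11%, and in the H3.1 24 h list 7.02% and 9.29%. The H3.1 4 h list had 6.56% and 7.63%, the H3.3 control list 6.75% and 8.01%, and the H3.3 4 h list 7.63% and 7.75%, each pair with overlapping intervals. When every list was held to its 3614 highest-scoring regions, the length of the shortest list, the density ratio was 0.222 in H3.1 control and 0.152 in H3.3 24 h. By score, the highest-ranked regions of the 2 long lists were thus rarer on these chromosomes than the lists as a whole. By fold they were not. Among regions with a fold of 8 or more the ratio was 0.463 in H3.1 control, against 0.425 for the full list. At H3.3 24 h it was 0.533, against 0.477.

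**Figure D2:**
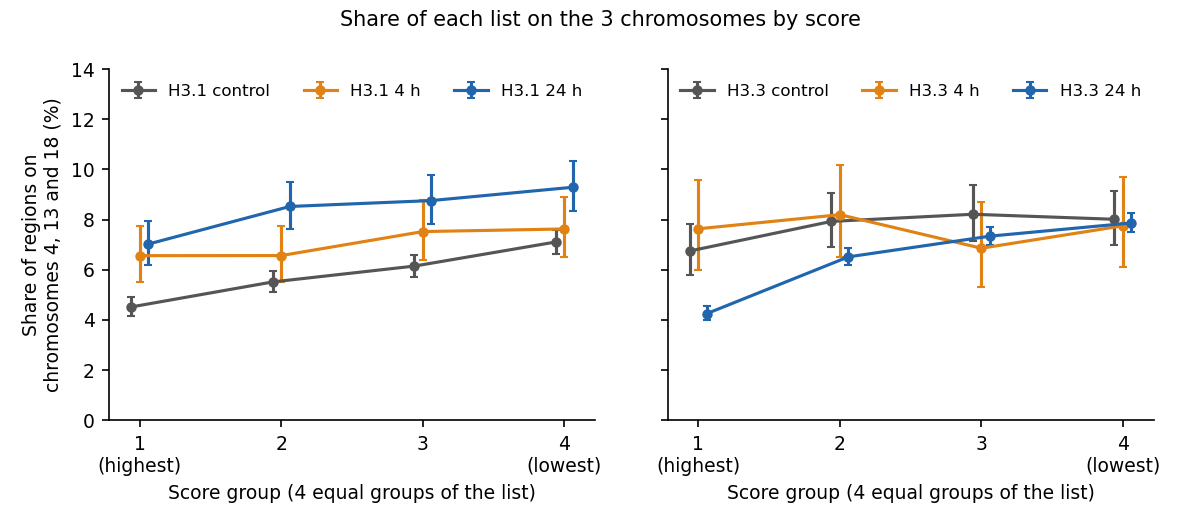
Share of regions on chromosomes 4, 13 and 18 (vertical axis, percent) in 4 equal groups of each list ranked on the authors' score, from the highest to the lowest, with exact 95% intervals for counting error. H3.1 control climbs over the groups to 7.11% and H3.3 24 h to 7.87%, while the H3.3 4 h list stays between 6.86% and 8.19%.

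Along the chromosomes, regions crowded toward the ends. The outer 10 Mb of each arm, leaving out the short arm of chromosome 13, make up 13% of the length of the 3 chromosomes and hold 21.9% of their genes. They held 49.2% of the regions in H3.1 control, 56.1% at H3.1 4 h, 48.0% at H3.1 24 h, 52.1% in H3.3 control, 52.0% at H3.3 4 h and 30.9% at H3.3 24 h. On the other 20 chromosomes the same windows, 13.6% of length, held between 23.7% of the regions, in H3.3 24 h, and 43.1%, in H3.3 control, less in each list than on the 3.

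The ends differed in this. The short-arm end of chromosome 4, 5.26% of that chromosome, held 54.6% of its regions in H3.1 control, 57.0% at H3.1 4 h, 47.3% at H3.1 24 h, 52.3% in H3.3 control, 53.0% at H3.3 4 h and 31.3% at H3.3 24 h, with 135 of its 770 genes. The opposite end of chromosome 4, of equal length, held between 2.99% and 9.46% of the regions. The long-arm end of chromosome 13, 8.74% of its length, held between 36% and 44.9% in 5 lists and 19.4% at H3.3 24 h. The long-arm end of chromosome 18, 12.5% of its length, held 28.8% in H3.1 control and 16.2% at H3.3 24 h but between 38.4% and 47.6% in the 4 short lists. Its short-arm end held between 4.76% and 13.3%, against 12.5% of length. At the 3 crowded ends the share of the H3.3 24 h list was the lowest of the 6.

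**Figure D3:**
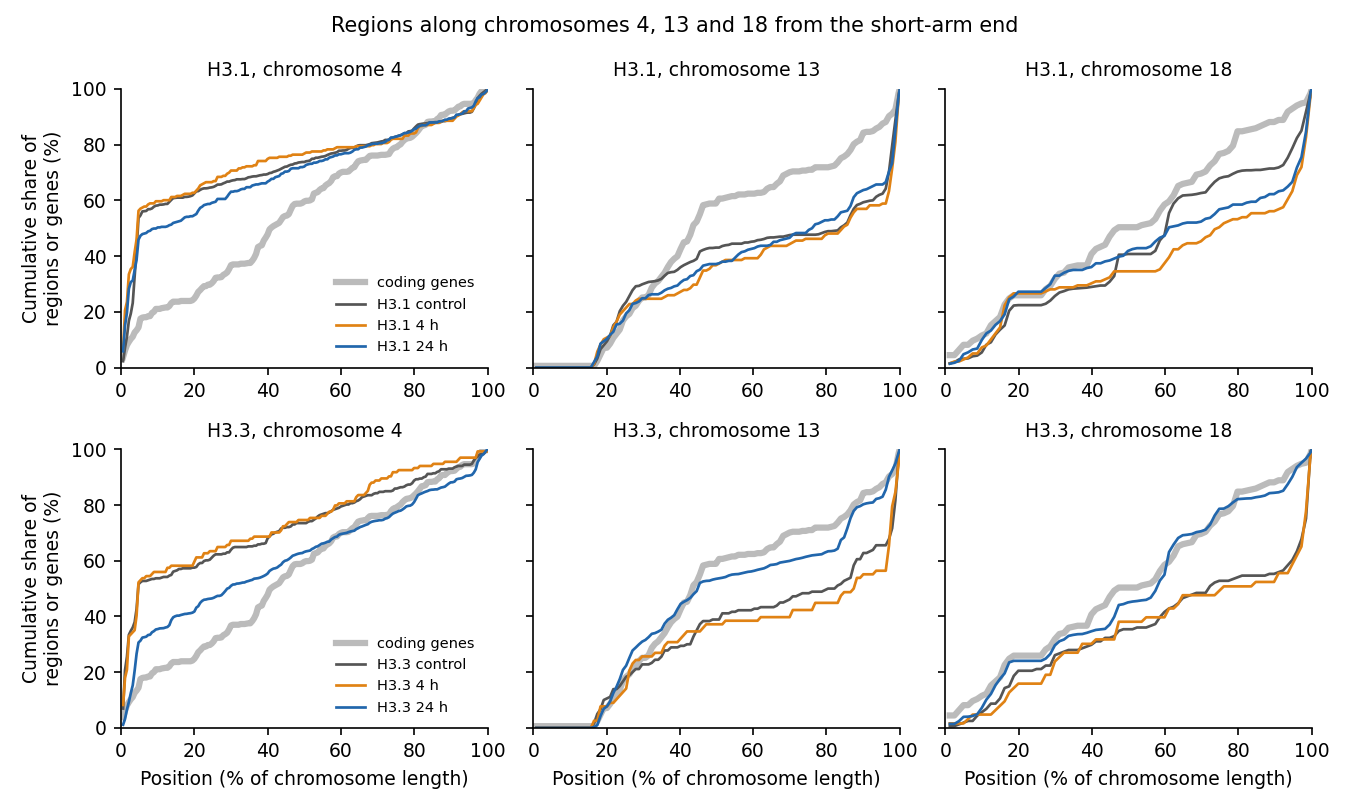
Cumulative share of regions (coloured lines) and of protein-coding genes (wide grey line) along chromosomes 4, 13 and 18, in percent, against position as percent of chromosome length from the short-arm end. The lines jump at the start of chromosome 4, where 54.6% of H3.1 control regions lie in the first 10 Mb, and near the end of chromosomes 13 and 18, and the H3.3 24 h line runs closest to the genes.

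In the 2 long lists the fullest 1 Mb bin of chromosomes 4 and 13 lay within these ends, and that of chromosome 18 away from them. In the 4 short lists the fullest bin of all 3 chromosomes lay within an end. On chromosome 4 the bin from 8 to 9 Mb held 126 regions in H3.1 control, 27 at H3.1 4 h, 36 at H3.1 24 h, 37 in H3.3 control, 16 at H3.3 4 h and 87 at H3.3 24 h, and contains the serine protease gene HTRA3 and the homeobox gene HMX1. The bin from 7 to 8 Mb, with SORCS2 and AFAP1, held 105, 12 and 18 H3.1 regions and 20, 7 and 130 H3.3 regions in control, 4 h and 24 h cells. The bin from 6 to 7 Mb, with JAKMIP1, WFS1 and PPP2R2C, held 108, 14 and 19 H3.1 regions and 8, 1 and 115 H3.3 regions. High counts in these bins lay in the 2 long lists, and the short lists kept at most 37 in any of them, but the lists differ in length. Chromosome 4 had 1110, 263 and 499 H3.1 regions and 419, 134 and 2157 H3.3 regions in control, 4 h and 24 h cells. Relative to these totals the bin from 8 to 9 Mb was fuller in each short list than at H3.3 24 h. The bins from 6 to 7 Mb and from 7 to 8 Mb were not.

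On chromosome 13 the fullest bin of H3.1 control, from 111 to 112 Mb with ARHGEF7, a Rac and Cdc42 exchange factor, held 67, 13 and 11 H3.1 regions and 7, 11 and 35 H3.3 regions in control, 4 h and 24 h cells. The fullest of H3.3 24 h, from 110 to 111 Mb with the type IV collagen pair COL4A1 and COL4A2, held 43, 7 and 13 H3.1 regions and 4, 7 and 69 H3.3 regions. On chromosome 18 the bin from 48 to 49 Mb, with ZBTB7C, CTIF and SMAD7, held 63, 3 and 9 H3.1 regions and 2, 2 and 132 H3.3 regions. The bin from 37 to 38 Mb, with CELF4, held 61, 0 and 2 H3.1 regions and 3, 4 and 69 H3.3 regions. In the 4 short lists these 2 inner bins held at most 9 regions each. Those 9, at H3.1 24 h, stood beside a median of 2 per bin of chromosome 18 in that list, and the 4 at H3.3 4 h beside a median of 0. The bin from 79 to 80 Mb, with NFATC1, was occupied in every list, with 55, 21 and 42 H3.1 regions and 39, 13 and 36 H3.3 regions.

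Of the 387 bins of 1 Mb on the 3 chromosomes, 80 were empty in H3.1 control, 205 at H3.1 4 h, 103 at H3.1 24 h, 154 in H3.3 control, 265 at H3.3 4 h and 29 at H3.3 24 h. The fullest bins that together held 50% of the regions numbered 26, 20 and 32 for H3.1 and 24, 17 and 51 for H3.3 in control, 4 h and 24 h cells. Across the bins, the rank correlation of H3.1 control with H3.3 24 h was 0.79, the highest of the 15 pairs of lists, and that of H3.1 4 h with H3.3 4 h was 0.34, the lowest. Pearson's r, which full bins dominate, gave another order, with 0.91 for H3.1 4 h with H3.3 control, the highest, and 0.83 for H3.1 control with H3.3 24 h. These correlations describe bins that share gene content and mappability, with no test. The number of genes in a bin correlated at 0.69 with its H3.3 24 h regions, 0.54 with its H3.1 control regions and 0.30 with its H3.3 4 h regions.

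The longest stretch without a region in any list ran over chr18:15330881-19483985, 4.15 Mb that hold no protein-coding gene and span the centromere. On chromosome 4 it was chr4:49656043-51872959, 2.22 Mb at the centromere, also with no gene. On chromosome 13 no region lay before 18.2 Mb, which is the short arm and centromere, and beyond that the longest stretch was chr13:56623127-57630977, 1.01 Mb with 5 genes, the near-identical copies PRR20A to PRR20E. In single lists the stretches were longer, up to 11.7 Mb on chromosome 4 and 11.4 Mb on chromosome 13 at H3.3 4 h. The 19 USP17L genes of chromosome 4, also near-identical copies, held no region in any list. Copies of this kind split or lose short reads, so that absence of the histone and loss of reads cannot be told apart there.

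In the 2 long lists regions had close neighbours less often than elsewhere. A neighbour of the same list within 10 kb was found for 48.6% of H3.1 control regions on the 3 chromosomes, against 65.5% on the other 20, and for 50.3% of H3.3 24 h regions, against 71.3%. In the short lists the share was 21.4% at H3.1 4 h against 24.0%, 26.2% at H3.1 24 h against 30.8%, 28.0% in H3.3 control against 31.5% and 8.73% at H3.3 4 h against 12.4%, and of these 4 the intervals overlapped except at H3.1 24 h. At H3.3 4 h the median distance to the next region was shorter on the 3, at 95.8 kb against 100.4 kb. Regions were also narrow. Their median width was 500 bp, the smallest the peak caller writes, in every list, and 4.70% of H3.1 control regions were wider than 1 kb, against 6.73% elsewhere, and 4.16% of H3.3 24 h regions, against 9.03%. The widest, 3510 bp in H3.1 control at chr13:18958688-18962198, lay outside genes close to the centromere of chromosome 13 at 4.20-fold over input.

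Merging regions that overlap gave 9534 separate loci on the 3 chromosomes, of which 89.3% were in 1 list, against 85.5% on the other 20. In 3 or more lists were 67 loci (0.703%, against 0.734% elsewhere), and 8 were in 4 or more (0.0839%, against 0.0506% elsewhere). Of the 67, 52 lay within 10 Mb of a chromosome end, where single lists had between 30.9% and 56.1% of their regions. No locus was in all 6. The 1 locus in 5 lists, chr4:1058671-1060920, lies inside RNF212, a gene needed for meiotic crossing-over. It was missing at H3.3 4 h, and its regions held 11.3, 8.54 and 16.0 normalized tags for H3.1 in control, 4 h and 24 h cells and 19.0 and 17.4 for H3.3 in control and 24 h cells. Its regions form a chain and do not all overlap: the H3.1 24 h and H3.3 control regions lay toward its lower coordinate, the H3.1 control and 4 h regions toward its higher one, and the H3.3 24 h region between them. Of the 7 loci in 4 lists, 2 lay inside SORCS2, 1 inside FAM53A, 1 inside SLC9D1 and 3 outside genes, among them chr18:79384191-79385661 near NFATC1.

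Relative to genes, regions on the 3 chromosomes lay less often at gene ends. Within 2 kb of a start or end of a protein-coding gene body lay 5.92% of H3.1 control regions (5.05 to 6.89), against 12.1% on the other 20, 9.29% at H3.1 4 h against 14.5%, and 13.7% at H3.1 24 h against 20.0%. For H3.3 these were 12.1% in control cells against 19.0%, 8.36% at 4 h against 12.5%, and 5.17% at 24 h (4.59 to 5.80) against 10.6%. The interval of each list lay below that of the other 20 except at H3.3 4 h, with 5.38 to 12.3 and 11.4 to 13.7. There the direction turned among regions with a fold of 8 or more, at 8% of 25 regions against 6.30%. Gene ends are also rarer here, at 2.63% of length against 4.83%. Per length, region centres lay at gene ends 1.98 times as often as placement along the length alone in H3.1 control, 4.86 times in H3.1 24 h and 1.72 times in H3.3 24 h, against 2.23, 3.86 and 1.94 times on the other 20. The other short lists had 3.26 against 2.75 at H3.1 4 h, 4.31 against 3.63 in H3.3 control and 3.18 against 2.36 at H3.3 4 h. On that scale the ratio was higher on the 3 chromosomes in the 4 short lists and lower in the 2 long lists. No intervals were computed for these ratios, so how far counting error reaches was not tested. At H3.3 4 h the ratio rests on 23 regions, and chromosome 18 alone had 1.26.

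Outside genes and their ends lay 46.1%, 50.5% and 45.8% of H3.1 regions in control, 4 h and 24 h cells, against 38.7%, 37.8% and 33.0% on the other 20. For H3.3 these shares were 46.2%, 50.5% and 48.1%, against 34.0%, 40.5% and 41.8%. Farther than 100 kb from any protein-coding gene, deep in gene deserts, lay between 15.6% of the regions, in H3.1 control, and 18.5%, at H3.3 4 h. On the other 20 it was 8.80% to 12.2%. The share of length in such deserts was not computed, so whether regions were enriched there cannot be read from these shares. Gene bodies were overlapped by 46.3% to 51.9% of the regions, against 54.5% to 62.4% elsewhere. Gene bodies also take up less of the length here, 34.5% against 42.6%. Per length, region centres of H3.1 control lay in gene bodies 1.49 times as often as placement along the length alone, against 1.34 elsewhere. At H3.3 24 h this ratio was 1.44 against 1.26, and it was also higher on the 3 in H3.3 control and 4 h. It was slightly lower on the 3 at H3.1 4 h, 1.33 against 1.35, and at H3.1 24 h, 1.437 against 1.439.

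**Figure D4:**
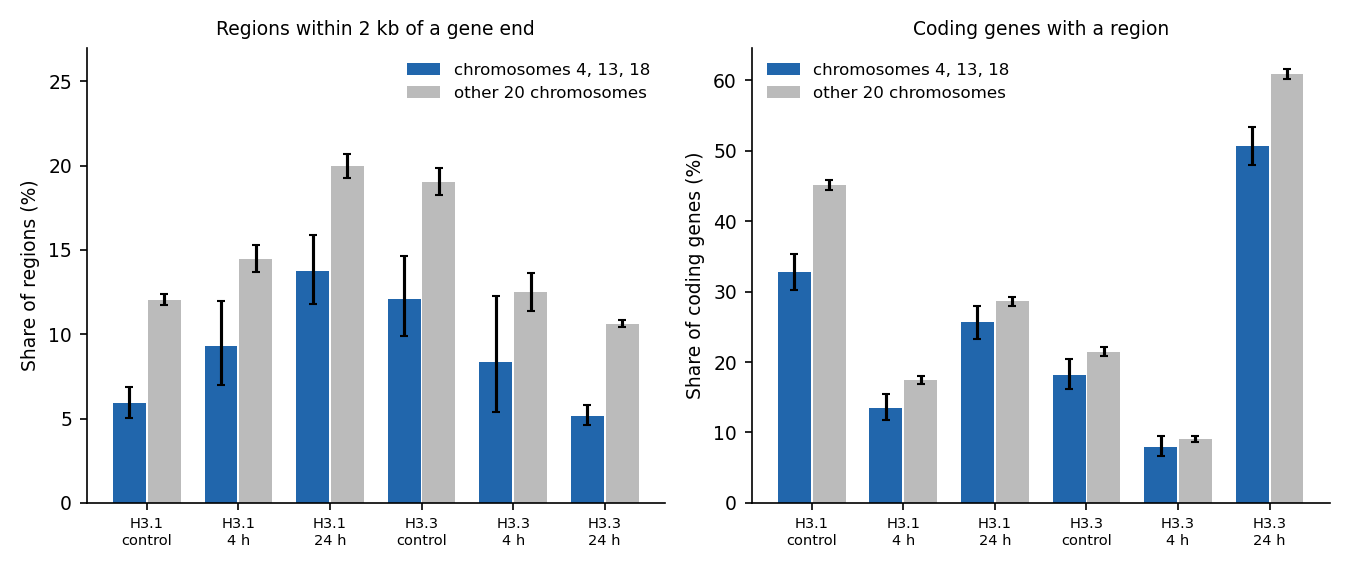
Left, share of regions within 2 kb of a gene end, and right, share of protein-coding genes with a region (both in percent), for chromosomes 4, 13 and 18 together (blue) and the other 20 (grey) in the 6 lists, with exact 95% intervals for counting error. With all regions of each list, blue bars are lower in every pair, with 5.92% against 12.1% of H3.1 control regions at gene ends and 32.7% against 45.2% of genes with an H3.1 control region.

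The 300-base promoter windows were overlapped at 13 of 1190 genes in H3.1 control, 10 at H3.1 4 h, 22 at H3.1 24 h, 12 in H3.3 control, 0 at H3.3 4 h and 22 at H3.3 24 h. In the same order these were 1.09%, 0.840%, 1.85%, 1.01%, 0% and 1.85% of the windows on the 3 chromosomes, against 2.49%, 0.772%, 2.59%, 1.45%, 0.158% and 4.33% over all chromosomes. Windows overlapped in the 2 long lists had few CG dinucleotides, with medians of 11 in H3.1 control and 14 in H3.3 24 h, while those of H3.1 24 h had a median of 31, those of H3.3 control 24.5 and those of H3.1 4 h 21. Windows with 10 or fewer made up 6 of 13 in H3.1 control and 9 of 22 in H3.3 24 h, against 319 of all 1190 (26.8%). The same contrast was present elsewhere, with medians of 7 and 9 in the 2 long lists against 22 over all windows. Among the printed promoters, JAKMIP1, PSAPL1 and AFG2A were overlapped in the long lists and CIDEA, RAX and OTOP1 in the short ones. AFG2A, with 17 CG, was near OTOP1 with 19 and RAX with 20. DCHS2, with 25 CG, was overlapped in H3.1 control as well as 4 h, and PSAPL1 in H3.1 24 h as well as the long lists.

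The authors' fold of ChIP over input had a median of 6.35 in H3.1 control (6.21 to 6.35), against 6.21 on the other 20 chromosomes, and of 8.18 at H3.3 24 h (8.04 to 8.46), against 7.19. In the other 4 lists the median lay between 4.63 and 4.84 on the 3 and between 4.63 and 4.98 elsewhere, close to the fold of 4 that calling required. At H3.3 24 h it was 8.04 on chromosome 4, 8.68 on chromosome 13 and 8.46 on chromosome 18. This difference moved with the input: 18% of H3.3 24 h regions on the 3 had no input tag, against 13% elsewhere, and the mean input was 1.87 tags per region, against 2.41. Without regions that had no input tag, the median was 6.77 on the 3 and 6.77 on the other 20. The signal itself was lower at H3.3 24 h, with a median of 8.17 normalized tags on the 3 against 9.19, and 8.58 against 9.11 in H3.1 control.

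The regions of highest score on each chromosome lay inside genes, at their ends or between them, and their fold intervals were wide. The best of all lists on chromosome 18 was an H3.3 control region inside DLGAP1, a synaptic scaffold gene, with a score of 46, 44.7 normalized tags and a fold of 5.29 (2.98 to 10.1). On chromosome 13 it was an H3.3 control region inside RASA3, a Ras GTPase-activating protein, with a score of 44, and on chromosome 4 an H3.1 4 h region inside UVSSA, a transcription-coupled repair factor, also with a score of 44. H3.3 control regions within 2 kb of an end of GLRB, the glycine receptor beta subunit, and of DCLK2, a doublecortin-like kinase, each scored 43. At H3.1 24 h the 2 highest on chromosome 4 lay 0.038 kb from an end of CPEB2, a regulator of cytoplasmic polyadenylation, and inside CPLX1, complexin 1, both with a score of 38. At H3.3 4 h they lay inside FGFR3, a fibroblast growth factor receptor, at 32, and PCGF3, a polycomb protein, at 30. In the 2 long lists the highest scores were 31 in H3.1 control, between genes on chromosome 13, and 35 in H3.3 24 h inside PARP4, whose fold of 33.0 rests on 1 input tag (5.60 to 1339).

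A region in the body or within 2 kb was found at 451 of 1378 protein-coding genes in H3.1 control (32.7%, 30.3 to 35.3), where 44.3% of genes on all 23 chromosomes had one. The share was 13.5% (186 genes) at H3.1 4 h, against 17.1% of all genes, and 25.6% (353 genes) at H3.1 24 h, against 28.4%. For H3.3 it was 18.2% (251 genes) in control cells, against 21.3%, 7.98% (110 genes) at 4 h, against 8.97%, and 50.7% (698 genes) at 24 h, against 60.2%. Among regions with a fold of 8 or more the direction turned in 2 lists, with 4.14% of genes on the 3 against 3.06% on the other 20 at H3.1 24 h and 1.02% against 0.742% at H3.3 4 h. The median number of regions per gene was 1 at H3.3 24 h and 0 in the other 5 lists, both on the 3 chromosomes and over all genes. The shares differed by gene length. Of the 376 genes longer than 100 kb, 59.8% had an H3.1 control region and 82.7% an H3.3 24 h region, against 62.6% and 84.9% of such genes on the other 20. Among genes up to 100 kb the shares were 22.6% and 38.6%, against 41.9% and 56.3%. In the 2 long lists the difference thus lay mainly among genes up to 100 kb. In the 2 long lists chromosome 18 had the highest share of the 3 and chromosome 4 the lowest, with 43.7%, 36.1% and 27.4% for chromosomes 18, 13 and 4 in H3.1 control and 62.6%, 54.7% and 44.7% at H3.3 24 h. The order differed at H3.1 24 h, with 29.6%, 31.4% and 21.7%, and at H3.3 4 h, with 7.78%, 8.58% and 7.79%.

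No list touched 491 of the 1378 genes (35.6%, against 25.7% on the other 20), and 32 genes (2.32%, against 2.28%) had a region in all 6. Of these 32, 31 had their midpoint within 10 Mb of a chromosome end, where 304 of the 1378 genes lie, the exception being LATS2, a kinase of the Hippo pathway on chromosome 13. Near the short-arm end of chromosome 4 they included GAK, a clathrin-uncoating kinase, with 3, 5 and 8 H3.1 regions and 9, 1 and 2 H3.3 regions in control, 4 h and 24 h cells, UVSSA, FAM53A and HTT, the huntingtin gene. FAM53A had 4, 9 and 8 H3.1 regions and 11, 4 and 5 H3.3 regions, so its counts were highest outside the 2 long lists. HTT had 5, 3 and 5 H3.1 regions and 2, 1 and 11 H3.3 regions. On chromosome 13 they included the coagulation factor gene F7, ATP11A, MCF2L and RASA3, and on chromosome 18 MBP, NFATC1 and CTDP1, a phosphatase of the RNA polymerase II tail. A further 56 genes had a region in 5 lists, and near the ends lay 18 of 21 of them on chromosome 4, 8 of 22 on chromosome 13 and 2 of 13 on chromosome 18. RASA3, the gene in all 6 lists nearest the end of chromosome 13, had 10, 3 and 7 H3.1 regions and 4, 3 and 9 H3.3 regions.

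Regions piled up in a few long genes. SORCS2 (chr4:7192538-7742827, 550 kb), which encodes a VPS10-domain sorting receptor, had 77, 7 and 9 H3.1 regions and 15, 5 and 82 H3.3 regions in control, 4 h and 24 h cells. They covered 49.2 kb in H3.1 control and 51.8 kb in H3.3 24 h, and 27 of the 77 overlapped one of the 82. It held 6.94% of all H3.1 control regions of chromosome 4 and ranked 7 among all genes by the number of regions in that list, and 8 in H3.3 24 h. CELF4 (chr18:37242844-37565798, 323 kb), an RNA-binding protein, had 58, 0 and 2 H3.1 regions and 2, 3 and 57 H3.3 regions, with 21 of the 58 overlapping H3.3 24 h. Per 100 kb of gene and flank, CELF4 was the denser in H3.1 control, at 17.7 against 13.9 for SORCS2. CTIF (chr18:48539031-48863217, 324 kb), a cap-dependent translation factor, had 36, 2 and 7 H3.1 regions and 0, 0 and 57 H3.3 regions. All 3 genes had more regions in each of the 2 long lists than in any other list, but these lists are longer throughout. As a share of the regions of its chromosome, SORCS2 held 3.58% in H3.3 control, 3.73% at H3.3 4 h and 3.8% at H3.3 24 h. CELF4 held 7.30% in H3.1 control and 3.52% at H3.3 24 h, but also 4.76% at H3.3 4 h.

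Further genes had that pattern in part. PPP2R2C, a regulatory subunit of protein phosphatase 2A, had 37, 7 and 6 H3.1 regions and 1, 1 and 43 H3.3 regions in control, 4 h and 24 h cells. ZBTB7C, a zinc finger gene, had 20, 1 and 1 H3.1 regions and 0, 1 and 50 H3.3 regions, and LDLRAD4, a negative regulator of TGF-beta signalling, had 25, 4 and 10 and 0, 2 and 39. ATP8A2, a phospholipid flippase, had 10, 2 and 2 H3.1 regions and 0, 1 and 25 H3.3 regions. MCF2L, a guanine nucleotide exchange factor, kept 9 or more regions in every list but H3.3 4 h, with 25, 9 and 14 H3.1 regions and 14, 2 and 14 H3.3 regions. ATP11A, another flippase gene and its neighbour, had 17, 1 and 13 H3.1 regions and 6, 1 and 14 H3.3 regions.

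NFATC1 (chromosome 18), a calcineurin-dependent transcription factor, went the other way. It had 10, 9 and 19 H3.1 regions and 16, 7 and 2 H3.3 regions in control, 4 h and 24 h cells. None of its 10 H3.1 control regions overlapped an H3.3 24 h region, but with 2 such regions, covering 1 kb, little overlap was possible. GAK and FAM53A, whose counts are given above, were likewise among the genes with more H3.1 regions and fewer H3.3 regions at 24 h than in control cells.

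**Figure D5:**
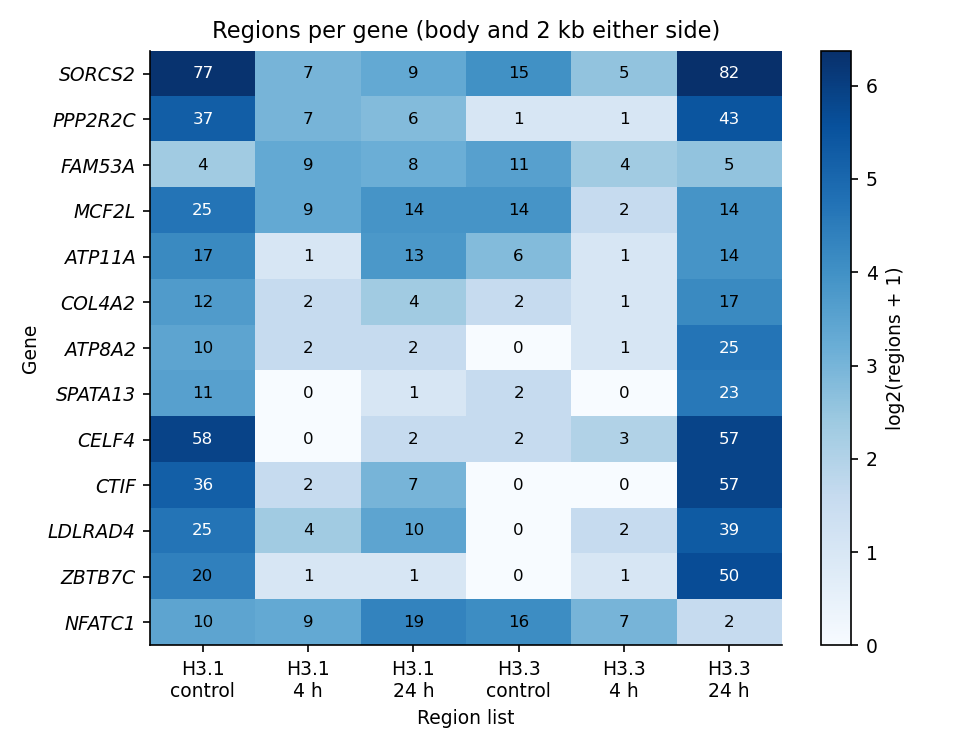
Number of regions in the body or within 2 kb of 13 genes (rows, chromosome 4 at the top, then 13 and 18) in the 6 lists (columns), printed in each cell and coloured on a log2(regions + 1) scale. SORCS2 with 77 and 82 and CELF4 with 58 and 57 are dark in H3.1 control and H3.3 24 h and pale between, while NFATC1 has 19 regions in H3.1 24 h and 2 in H3.3 24 h.

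By gene, 41 of 1378 (2.98%) had an H3.1 region at 4 h but not in control cells, where 4.2% of all genes did, and 306 (22.2%) had one in control cells alone, where 31.4% did. At 24 h, 141 genes (10.2%) had an H3.1 region that control cells lacked, against 9.09% of all genes, and 239 (17.3%) had one in control cells alone, against 25%. The 141 had few regions each. They were led by SETBP1 with 4, SIGLEC15 and SALL3 with 3 each on chromosome 18, by DGKQ and TMEM175, a lysosomal ion channel, with 2 each on chromosome 4, and by ZMYM2 and FRY with 2 each on chromosome 13. Genes with H3.1 in control cells and not at 24 h were led by STK32B and MYO5B, a myosin motor of vesicle recycling, with 12 regions each, and CRMP1 with 7.

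For H3.3, 45 genes (3.27%) had a region at 4 h alone, against 4.18% of all genes, and 186 (13.5%) in control cells alone, against 16.5%. At 24 h, 508 genes (36.9%) had an H3.3 region that control cells lacked, against 43.4% of all genes, and 61 (4.43%) had one in control cells alone, against 4.5%. The 508 were led by CTIF with 57 regions, ZBTB7C with 50, LDLRAD4 with 39, ATP8A2 with 25 and JAKMIP1 with 20. Those with H3.3 in control cells alone had at most 4, at IDUA, a lysosomal glycosidase, and at LRPAP1, a chaperone of LDL receptor-family proteins, then NKX1-1 with 3 and SMAD2 with 2. The share of 4.43% is close to that of all genes.

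The 11 gene lists held 199 distinct genes of the 3 chromosomes, and their counts are read beside the shares of all genes given above. These lists were chosen with earlier results of these data known, so a share above that of all genes describes the list and is not a test. Of 30 homeobox and other developmental transcription factors, 9, 5 and 19 had an H3.1 region in control, 4 h and 24 h cells and 10, 4 and 16 an H3.3 region. At H3.1 24 h that is 63.3%, with a median of 1 region per gene, against 28.4% and a median of 0 over all genes. Among the 19 were SALL3 with 3 regions, HMX1 with 3, and ZIC2, SOX1, SOX21 and GATA6 with 1 each. SALL3 had 0, 0 and 3 H3.1 regions and 2, 1 and 1 H3.3 regions. SOX1 and SOX21, factors of neural progenitors, had a region in that list and in no other. NKX1-1 had 0, 2 and 1 H3.1 regions and 3, 0 and 0 H3.3 regions.

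Of 24 receptor tyrosine kinases, their ligands and adaptors, 7, 6 and 7 had an H3.1 region and 6, 4 and 12 an H3.3 region, and 9 had none in any list. FGFR3 had 0, 1 and 0 H3.1 regions and 4, 2 and 1 H3.3 regions. FLT1, a VEGF receptor, had 1, 0 and 1 H3.1 regions and 2, 1 and 6 H3.3 regions, and GAS6, the ligand of AXL-family receptors, had 1, 1 and 5 and 0, 1 and 4. KIT, the stem cell factor receptor, had 0, 1 and 0 H3.1 regions and 0, 1 and 2 H3.3 regions. Of 19 basement membrane, matrix and proteoglycan genes, 9, 5 and 8 had an H3.1 region and 6, 3 and 13 an H3.3 region, with a median of 5 regions at H3.3 24 h. COL4A2 had 12, 2 and 4 H3.1 regions and 2, 1 and 17 H3.3 regions, COL4A1 had 4, 0 and 4 and 1, 0 and 13, and the laminin gene LAMA3 had 4, 0 and 3 and 0, 1 and 14. These are long genes, with a median of 206 kb over the list. Of 21 cadherins and desmosomal genes, 5, 5 and 4 had an H3.1 region and 1, 2 and 9 an H3.3 region, among them FAT1 with 8 regions at H3.3 24 h and none in the other 5 lists.

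Of 26 chromatin, replication and repair genes, 8, 4 and 10 had an H3.1 region and 5, 1 and 14 an H3.3 region. NSD2, a histone H3 lysine methyltransferase, had 4, 1 and 2 H3.1 regions and 0, 0 and 8 H3.3 regions, and SETBP1 had 0, 0 and 4 and 1, 0 and 7. The repair gene BRCA2 had none in any list. Of 19 apoptosis, checkpoint and tumour suppressor genes, 5, 1 and 5 had an H3.1 region and 5, 1 and 9 an H3.3 region, with CABLES1 at 3, 0 and 2 and 2, 1 and 10. RB1, the retinoblastoma gene, had 1, 0 and 2 H3.1 regions and 0, 0 and 1 H3.3 regions, and the apoptosis inhibitor BCL2 had 3, 0 and 0 and 1, 0 and 4. Of 13 redox, transporter and drug efflux genes, 5, 2 and 3 had an H3.1 region and 1, 1 and 9 an H3.3 region. The efflux pump gene ABCC4 had 0, 1 and 1 H3.1 regions and 0, 1 and 9 H3.3 regions, while the cystine transporter SLC7A11 had none. Of 11 SMAD and TGF-beta family genes, 4, 2 and 1 had an H3.1 region and 2, 1 and 5 an H3.3 region, with SMAD2 at 1, 1 and 0 and 2, 0 and 0.

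Tandem gene families held few regions, and 35.6% of all genes on the 3 chromosomes held none. Of 13 chemokine genes of chromosome 4, 11 had no region in any list, CXCL8 (interleukin 8) among them, and only CXCL13 (0, 0 and 1 H3.1 regions, 0, 0 and 2 H3.3 regions) and CXCL11 (1 at H3.3 24 h) had one. Of 17 alcohol dehydrogenase and UGT2 genes, 15 had none, UGT2B15 had 1 region at H3.3 4 h and UGT2B17 had 2 at H3.3 24 h. Near-identical UGT2B copies split or lose short reads, so their counts are uncertain. Of 10 clade B serpin genes of chromosome 18, 7 had none, and SERPINB8 had 1, 1 and 0 H3.1 regions and 0, 0 and 1 H3.3 regions. Most genes of these families are short, with a list median of 2.16 kb for the chemokines, 23.1 kb for the dehydrogenase and UGT2 genes and 24.9 kb for the serpins. Of 114 microRNA hairpins on the 3 chromosomes, MIR623 was overlapped at H3.1 24 h, MIR943 in H3.3 control, and MIR4798 and MIR95 at H3.3 24 h. No share over the hairpins of all chromosomes stands beside these counts, so they cannot be read as many or few.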

How the data were processed

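H3.1 and H3.3 ChIP-seq of MCF10AER/vSrc cells gave 6 ChIP libraries and 6 inputs, with single-end reads of 50 bases per the labels' protocols. The hg38 build was used, along with HOMER 4.11.1, Bowtie2 2.4.1 and cutadapt 3.7, as given in the submitters' processing notes. Per the file headers, the authors called regions per library over the matching input, requiring a fold of 4 and a Poisson p-value of 1e-04, with peaks of 500 bp at least 1000 bp apart. The deposited signal is the tag number of a region per 10000000 ChIP tags, the deposited score is the authors' region score, not adjusted for depth, and the deposited fold is a ratio of ChIP to input tags at equal depth. A region with 0 input tags has its fold computed on 0.5 tags. Tag numbers were recovered from the deposited values and were whole, to a tolerance of 0.1, in 100% of regions.

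Regions with chromosome 4, 13 or 18 were selected and set beside those on the other 20 of chromosomes 1 to 22 and X. Chromosome length ran to the largest coordinate in the lists or the gene table. Protein-coding genes came from a RefSeq table (GRCh38.p14, the assembly of hg38) without strand, so both gene ends were used, with 2 kb windows and an overlap of 1 bp or more. Promoter windows and microRNA hairpins came from RefSeq sequence tables of the same assembly, which cover 1190 of the 1378 protein-coding genes. Python 3.11.15, numpy 2.4.6, pandas 2.3.3, scipy 1.17.1 and matplotlib 3.10.9 were used. Intervals are 95%: Clopper-Pearson for shares, conditional binomial for ratios of counts and folds, and order statistics for medians, and all cover counting error only. The fold intervals make no allowance for the selection of regions on the same tags. The overlap code and the intervals were checked on simulated data.

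With 1 library per condition no test between conditions was run. The members and gene lists were chosen with earlier results of these data known. Named genes were those at the 2 highest-scoring regions per chromosome and list, those in at least 5 lists, the 3 with most regions per chromosome in H3.1 control and H3.3 24 h, those in the 2 fullest bins per chromosome of these lists, and the up to 4 list members with the highest-scoring regions. Other named genes, such as those present in 1 condition alone, list members outside the leading 4 and the chromosome 18 bin from 79 to 80 Mb, were chosen after their values were seen. A gene on chromosome 4 that met these rules is not reported here. Alternatives were a fold of 8 or more, lists of equal length, chromosomes without their outermost 2 Mb, length without empty 1 Mb bins, a 500 bp window, gene bodies alone and regions with an input tag. No genome sequence was used, and region sequences were not analysed here.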

Additional observations from a re-analysis of the deposited data

Results flagged for a closer look

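On chromosomes 4, 13 and 18 the H3.1 and H3.3 lists moved in opposite directions between 24 h and control, and with 1 library per condition none of these differences was tested. The number of regions at 24 h was 0.437 times that of control for H3.1 and 6.95 times for H3.3. The density ratio of the 3 chromosomes to the other 20 differed by 0.205 for H3.1 and by -0.0981 for H3.3, 24 h minus control. The share of regions within 2 kb of a gene end differed by 7.82 percentage points for H3.1 and by -6.94 for H3.3. The share of protein-coding genes with a region differed by -7.11 percentage points for H3.1 and by 32.4 for H3.3. The median fold over input differed by -1.51 for H3.1 and by 3.55 for H3.3. In each case the 2 long lists, H3.3 24 h and H3.1 control, lay on the same side, and depth differed by less than the lists did, at 16837079 ChIP tags in H3.1 24 h against 18656173 in H3.1 control, and 19576955 in H3.3 24 h against 17903759 in H3.3 control.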

How the results depend on the processing

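No paired analysis was possible because each condition has 1 library and no test was run. The density ratio stayed below 1 in all 6 lists under all 4 alternatives tried for it. With regions of a fold of 8 or more it was 0.463, 0.599 and 0.815 for H3.1 control, 4 h and 24 h and 0.476, 0.677 and 0.533 for H3.3 at the same times, and the interval of H3.3 4 h reached 1.02. With every list held to 3614 regions it was 0.222 in H3.1 control, 0.533 in H3.1 24 h, 0.509 in H3.3 control and 0.152 in H3.3 24 h. Without the outermost 2 Mb it was 0.403 in H3.1 control, 0.467 in H3.1 4 h and 0.525 in H3.3 control. Leaving out empty bins moved no ratio beyond its interval. The share at gene ends in a 500 bp window was 1.80%, 4.46% and 6.04% for H3.1 and 5.13%, 3.64% and 1.61% for H3.3. With a fold of 8 or more it was 6.82% at H3.1 4 h, 9.48% at H3.1 24 h and 4.22% at H3.3 24 h, and at H3.3 4 h, with 25 regions, it was 8% against 6.30% on the other 20, which turns the direction there. The share of genes with a region in the body alone was 23% at H3.1 24 h and 47.0% at H3.3 24 h. With a fold of 8 or more it was 19.3%, 1.31% and 4.14% for H3.1 and 1.38%, 1.02% and 36.3% for H3.3, and it was then higher than on the other 20 in H3.1 24 h (4.14% against 3.06%) and H3.3 4 h (1.02% against 0.742%). Without regions lacking an input tag the median fold was 5.93 in H3.1 control and 6.77 in H3.3 24 h. The cause of these shifts was not tested. The fold rests on few tags, with a mean input of 1.87 to 4.19 tags per region on the 3 chromosomes, and the lists of 275 and 560 regions leave the widest intervals.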
